A study of Mus musculus with 15 samples.

Results

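The comparison described here is between macrophages given extracellular vesicles (EVs) collected 7 days after 2 Gy of whole-body ionizing radiation (WBIR) and macrophages given EVs collected 3 days after the same dose. It takes 6 of the 15 samples of the study, chosen by the dose and day in their titles, with 3 samples for each day. The cells of both groups were RAW264.7, an established mouse macrophage line, which received lipopolysaccharide (LPS) and plasma EVs together for 24 hours. The EVs came from young female C57BL/6J mice, and the cells themselves were not irradiated. The other samples received EVs from sham mice, used here as a reference level, or from mice given 9 Gy, used in 1 comparison of the change with day. Whether the EVs of a sample came from 1 mouse or several is not given in the sources used here, and the methods describe the samples as run in triplicate, so p-values measure only the spread between these samples, which may be technical. The labels and the methods also differ on the number of EVs per exposure and on the lysis reagent.

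LPS is sensed by Toll-like receptor 4, which signals through the adaptor MyD88 to free NF-κB from its inhibitor IκBα. NF-κB then switches on cytokines such as TNF and IL-1, adhesion and costimulatory molecules, and also its own inhibitors, among them IκBα itself. A second wave runs through interferon and the STAT proteins, so that the panel's immune genes cover several layers of 1 response.

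The readout was the Mouse Immunology panel of the nanoString nCounter, which counts color-coded probes bound to mRNA without amplification. Total counts ranged from 583646 to 837995 in the day 3 samples and from 670882 to 819074 in the day 7 samples. Of the 561 genes on the panel, 280 reached a mean raw count of 20 across the 6 samples and were tested. Normalized counts are raw counts scaled by the geometric mean of 14 housekeeping genes. In bulk samples like these, fewer cells of a type and less RNA per cell cannot be told apart. All 10 macrophage markers on the panel passed this filter, with raw counts from 28 to 17992, whereas 2 of 10 T cell markers passed it. These were Cd8a, at 105 to 175 raw counts, and Lck, at 34 to 74, while the T cell receptor chains Cd3d and Cd3e ranged from 4 to 12. Summed normalized macrophage markers ranged from 33240 to 35965 at day 3 and from 34355 to 37475 at day 7, and those of liver and plasma genes from 84 to 88 and from 73 to 90.

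Taken as 3 samples against 3, no gene passed the test. EdgeR's quasi-likelihood test without a pairing called 0 of 280 genes at an adjusted p under 0.05 (0%), with 8 genes at an unadjusted p under 0.05 (2.86%), of which 6 were higher at day 7 and 2 lower. DESeq2 called 1 gene, Nfkbiz. When the samples were instead paired by the number in their titles, the same test called 29 genes (10.4%), of which 26 rose at day 7 (9.29%) and 3 fell (1.07%). The rises were modest, from 1.11-fold to 1.89-fold. Among the 26 genes, 25 were higher at day 7 in all 3 pairs, and all 3 genes that fell were lower in all 3 pairs. Of the 280 tested genes, 87 (31.1%) were higher and 33 (11.8%) lower in all pairs. The paired test selects genes whose pairs agree, so the higher share among the called genes follows from the selection. The paired calls rested on few samples. Without replicate 2 or replicate 3, of either group or of both, the paired test called 0 genes (32 to 47 at an unadjusted p under 0.05), and without replicate 1 it called 62. Leaving out replicate 1 of both groups gave 41 genes in the test without pairing.

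Of the 29 called genes, 3 had groups that did not overlap, a share similar to the 20 of all 280 tested genes (7.14%). Among the 3 were 2 that encode inhibitors of the NF-κB family. Nfkbiz encodes IκBζ, an inducible nuclear IκB protein that shapes secondary NF-κB target genes. Its normalized counts were 462, 485 and 483 with day 3 EVs and 635, 585 and 625 with day 7 EVs, for samples 1, 2 and 3 in turn. Every day 7 sample lay above every day 3 sample, with means of 477 ± 12.4 and 615 ± 26.5 (SD, n = 3). The log2 fold change was 0.37 ± 0.075 (SE) in the paired edgeR fit, with an adjusted p of 0.0134. Without pairing the log2 fold change was the same, 0.37, with an adjusted p of 0.876 in edgeR and 0.0223 in DESeq2. Nfkbia, which encodes IκBα, measured 791, 753 and 759 with day 3 EVs and 961, 874 and 972 with day 7 EVs. The groups did not overlap, and the paired log2 fold change was 0.28 ± 0.068 (SE; adjusted p 0.0285, edgeR). Sham EVs gave 1156, 874 and 1224 for Nfkbia and 556, 614 and 823 for Nfkbiz, and the sham mean was above the day 7 mean for both genes.

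**Figure D1:**
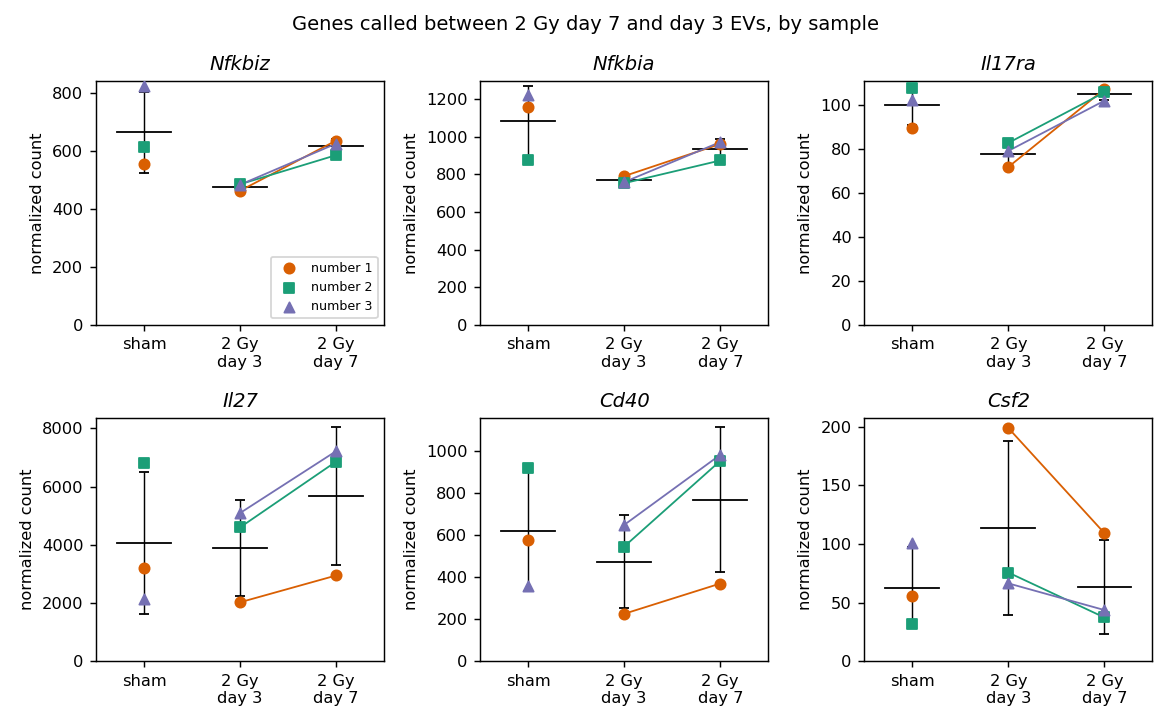
Normalized counts of 6 called genes in each sham and 2 Gy sample, on linear axes from 0, with horizontal bars for the mean, error bars for the SD (n = 3) and lines joining 2 Gy samples of the same number. Day 7 lies above day 3 without overlap for Nfkbiz, Nfkbia and Il17ra, whereas in Il27, Cd40 and Csf2 sample 1 stands apart on both days, as in Il27 with 2031 at day 3 and 2951 at day 7.

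The subunit gene Nfkb2, which encodes the precursor of the non-canonical subunit p52, gave 3199, 3966 and 4107 at day 3 and 3795, 4587 and 4724 at day 7. Each day 7 sample exceeded its day 3 partner, but day 7 sample 1 lay below day 3 samples 2 and 3. Its paired log2 fold change was 0.22 ± 0.048 (SE; adjusted p 0.0186, edgeR). Ikbke, a kinase of the IκB kinase family that also acts in interferon induction, gave 279, 567 and 642 at day 3 and 385, 821 and 888 at day 7 (0.49 ± 0.072, adjusted p 0.0019). With median-of-ratios scaling Nfkbia and Nfkb2 did not pass (adjusted p 0.0621 for both, edgeR), nor with TMM (0.0515 and 0.0619), while Nfkbiz and Ikbke passed under both. These 4 were the NF-κB genes called, out of 14 tested in a list of subunits, inhibitors and kinases, or 28.6% against 10.4% of all tested genes. With median-of-ratios or TMM scaling 2 of the 14 were called (14.3%), and the calls among all tested genes were also fewer than with housekeeping scaling. All 14 had a paired change above 0 with housekeeping or total-count scaling, and 11 of 14 with median-of-ratios or TMM scaling. Their median was 0.14 on the log2 scale, against 0.04 over all 280 tested genes, and 0.10 against -0.0061 with median-of-ratios and 0.09 against -0.01 with TMM scaling.

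Of the called genes in the NF-κB list, Nfkbia and Nfkb2 had promoters with a match to the κB consensus of NF-κB, and these are given here. The promoter of Ikbke in the same list, and those of Il1b, Itga5 and Ccl22, held none. Among the called genes with no entry in the table, which were not searched, are Nfkbiz, Cd40, Il27 and Il17ra. The sequences given are the 250 bases before the start site in RefSeq for GRCm38.p6, 5′ to 3′ on the strand of the gene. Matches to the κB consensus, searched on both strands, are in capitals. Nfkbia lies on the minus strand at chr12:55492648-55492897 and Nfkb2, at the first of its start sites in the table, on the plus strand at chr19:46304487-46304736.
Nfkbia: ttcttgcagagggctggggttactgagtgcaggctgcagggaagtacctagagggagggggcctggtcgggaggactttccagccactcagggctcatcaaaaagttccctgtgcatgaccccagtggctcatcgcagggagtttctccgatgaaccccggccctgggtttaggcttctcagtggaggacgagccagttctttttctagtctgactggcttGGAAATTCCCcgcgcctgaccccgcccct
Nfkb2: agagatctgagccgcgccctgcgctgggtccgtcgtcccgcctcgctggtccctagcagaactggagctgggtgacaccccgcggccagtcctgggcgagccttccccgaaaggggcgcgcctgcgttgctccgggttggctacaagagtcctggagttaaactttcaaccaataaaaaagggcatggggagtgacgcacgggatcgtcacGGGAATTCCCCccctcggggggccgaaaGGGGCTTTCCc
The match in Nfkbia began 29 bases before the start site. In Nfkb2 the matches began 39, 38 and 11 bases before it, and the first pair overlap. A match was found in the 300-base windows (250 before to 50 after the start) of 4 of the 21 called genes with a promoter in the table, or 19%, these being Irf1, Nfkb2, Nfkbia and Stat5a. The share was 12.3% among 211 tested genes and 5.14% among 27025 genes in all. A gene with several start sites was counted when any of its windows held a match. A match is a string of letters and was not tested as a binding site.

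Upstream of NF-κB, receptors and adaptors held 1 call. Myd88, the adaptor shared by most Toll-like receptors and the IL-1 receptor, gave 57.5, 73.1 and 75.3 at day 3 and 66.7, 102 and 111 at day 7, a paired log2 fold change of 0.45 ± 0.12 (SE; adjusted p 0.0419, edgeR). The call did not hold with median-of-ratios or TMM scaling (adjusted p 0.0658 and 0.0711, edgeR). Again the day 7 value of sample 1 fell inside the day 3 range. It was the only gene called of 16 in the list of Toll-like and IL-1 receptor signaling, or 6.25% against 10.4% of all tested genes. The median of the list was 0.08, and fell to 0.03 with median-of-ratios or TMM scaling, where 8 of 16 genes were above 0. Irak2, a kinase of the same pathway, measured 680, 747 and 737 at day 3 and 797, 873 and 856 at day 7. Its groups did not overlap, yet its change of 0.22 did not pass the paired test (adjusted p 0.068, edgeR). Tollip, which dampens the pathway, was likewise above all day 3 samples at day 7 without passing the test (0.12, adjusted p 0.332).

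Cytokines downstream of LPS held some of the largest paired changes. Il27, a cytokine subunit gene of activated macrophages, gave 2031, 4602 and 5095 with day 3 EVs and 2951, 6863 and 7221 with day 7 EVs. Each pair rose, but the samples numbered 1 were far below the others on both days, so the groups overlapped. The paired log2 fold change was 0.54 ± 0.048 (SE) with an adjusted p of 0.000178 in edgeR. Il1b, encoding the inflammasome-processed cytokine IL-1β, gave 3300, 4659 and 4901 at day 3 and 4206, 7284 and 7384 at day 7, a change of 0.53 ± 0.061 (adjusted p 0.000385). Ccl22, a chemokine for T cells bearing CCR4, showed the largest rise, from 61.1, 155 and 231 to 88.0, 322 and 441, or 0.92 ± 0.10. For both genes day 7 sample 1 lay below day 3 samples 2 and 3. Il1a, encoding IL-1α, gave 1342, 1702 and 1716 at day 3 and 1709, 2116 and 2003 at day 7, and Tnf gave 2092, 2745 and 2728 against 2525, 3176 and 3308. Both cytokines were higher at day 7 in every pair, by 0.29 ± 0.058 and 0.25 ± 0.052 (adjusted p 0.0132 and 0.0134, edgeR).

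Csf2, which encodes the growth factor GM-CSF, moved the other way. It gave 199, 75.7 and 66.5 with day 3 EVs and 109, 37.4 and 43.8 with day 7 EVs. Sample 1 was the highest on each day, and day 7 sample 1 lay above day 3 samples 2 and 3. The paired log2 fold change was -0.84 ± 0.12 (SE; adjusted p 0.00176, edgeR). Of 24 genes in the list of LPS-induced cytokines and chemokines, 5 were called higher and 1 lower, or 25% called against 10.4% of all tested genes. By direction alone, 13 of the 24 had a paired change above 0 and 11 below. The median of the list was 0.08, and 0.04 with median-of-ratios and 0.03 with TMM scaling. Il6 was lower in all 3 pairs without passing the test (-0.14, adjusted p 0.218). Ccl5, the chemokine RANTES, also did not pass (0.07, adjusted p 0.301).

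**Figure D2:**
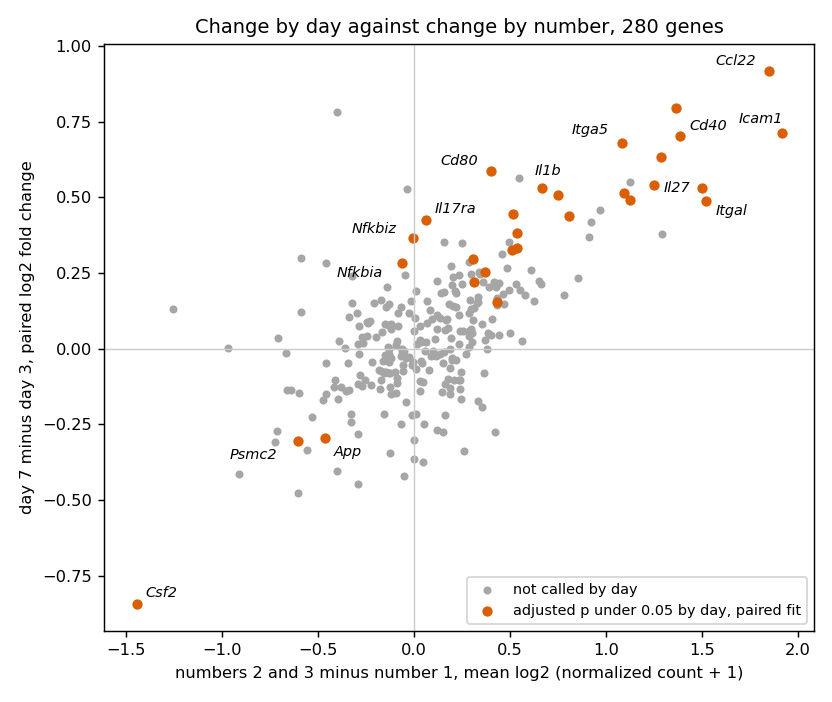
Each point is 1 of 280 genes, with the difference between samples 2 and 3 and sample 1 on the x axis and the paired change from day 3 to day 7 on the y axis, both in log2 units. The 29 called genes are in color, and most lie toward the upper right or lower left, while Nfkbiz, Nfkbia and Il17ra lie near 0 on the x axis.

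Adhesion and costimulation gave a further group. Itga5, the α5 integrin chain that binds fibronectin, measured 258, 527 and 563 at day 3 and 409, 824 and 928 at day 7, a paired log2 fold change of 0.68 ± 0.073 (SE; adjusted p 0.000385, edgeR). Cd40, a costimulatory receptor of antigen-presenting cells, measured 226, 546 and 649 at day 3 and 370, 954 and 983 at day 7, a change of 0.70 ± 0.077 with the same adjusted p. In both genes the 2 higher day 7 samples exceeded all day 3 samples and sample 1 did not. Cd80, a ligand of CD28, gave 49.1, 56.1 and 72.4 at day 3 and 71.6, 91.3 and 103 at day 7, overlapping by a single sample (0.59 ± 0.12, adjusted p 0.0134). Itgal, the αL chain of the integrin LFA-1, gave 103, 263 and 356 at day 3 and 151, 404 and 448 at day 7 (0.49 ± 0.091, adjusted p 0.00959), and its partner chain Itgb2 gave 164, 249 and 291 against 254, 301 and 359 (0.38 ± 0.094, adjusted p 0.0315). Itga5, Itgal and Itgb2 were each higher at day 7 in all 3 pairs, while Itgam, which was not called, was lower in all 3 (log2 ratios of -0.30, -0.25 and -0.09). Of 13 genes in the list of integrins and adhesion molecules, 9 had a paired change above 0 and 4 below, with a median of 0.15. Called higher among them were 4, Itga5, Itgal, Itgb2 and Icam1, where 10.4% of all tested genes were called. With median-of-ratios scaling 2 of the 4 lost their call, Itgb2 (adjusted p 0.0621, edgeR) and Icam1 (0.064), and Icam1 also lost it with TMM (0.0509) and total-count scaling (0.0571). Icam1 was the exception in direction among the 26, since it was lower at day 7 in sample 1 (15.6 against 11.6) and higher in the others. Of 7 costimulatory genes Cd40 and Cd80 were called higher (28.6%, against 10.4% of all tested genes). The median of the 7 was 0.11, or 0.06 with median-of-ratios or TMM scaling. Cd274, encoding PD-L1, did not pass (0.10, adjusted p 0.443, edgeR).

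Interferon and STAT genes contributed Irf1, Stat5a and Stat5b. Irf1, a transcription factor induced by interferon and NF-κB, gave 144, 265 and 262 at day 3 and 161, 427 and 381 at day 7, a paired change of 0.51 ± 0.10 (SE; adjusted p 0.0134, edgeR). The difference was small in sample 1 and larger in the other two. It was the only call among 20 interferon response genes, or 5% against 10.4% of all tested genes (median 0.07, and 0.03 and 0.02 with median-of-ratios and TMM scaling). Stat5a gave 187, 312 and 341 at day 3 and 251, 420 and 468 at day 7. It and Stat5b, which carry signals of GM-CSF and related cytokines, rose by 0.44 and 0.33 and were the calls among 18 JAK and STAT pathway genes, or 11.1% against 10.4% of all tested genes (median 0.06, and 0.02 and 0.01 with median-of-ratios and TMM scaling). Stat5b had an adjusted p of 0.0471 in edgeR, and lost its call with median-of-ratios (0.0848) and TMM scaling (0.0864). Il17ra, a receptor chain for IL-17 that was in none of the lists, gave 71.9, 82.9 and 79.2 at day 3 and 107, 106 and 102 at day 7. Its groups did not overlap, and its paired change was 0.42 ± 0.11 (adjusted p 0.0374), a call lost with median-of-ratios and TMM scaling (adjusted p 0.0623 and 0.0619).

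With scaling to all 14 housekeeping genes, lists for other functions held at most 2 calls each, where 10.4% of all tested genes were called. Cybb, the catalytic subunit of the phagocyte NADPH oxidase, and Trem2, a lipid-sensing receptor, rose among 16 phagocytic genes (median 0.03, and -0.02 with median-of-ratios scaling). Neither call held with that scaling (adjusted p 0.151 for Cybb and 0.0621 for Trem2, edgeR) or with TMM (0.195 and 0.0509). Cybb was also the call among 9 genes for nitric oxide, oxygen radicals and prostaglandins (median 0.04, and -0.0064 with median-of-ratios scaling), where Nos2 did not pass (-0.02, adjusted p 0.913). Tnf was the call among 11 TNF and TRAF genes (median 0.14, and 0.09 with median-of-ratios or TMM scaling). The calls in this list depended on the scaling, with 3 of 11 when the housekeeping gene Tubb5 was left out of it. Among 15 antigen presentation genes 1 was called, lower at day 7. It was Psmc2, a subunit of the proteasome cap (-0.31 ± 0.066, adjusted p 0.0181, edgeR), and the median of the list was -0.02. No gene was called among 11 apoptosis genes (median -0.01), 5 autophagy genes (median 0.13) or 13 housekeeping genes (median -0.03). At an unadjusted p under 0.05 the paired edgeR test held 1, 0 and 2 genes of these lists, against 65 of all 280 (23.2%). App, encoding the amyloid precursor protein, gave 1729, 1326 and 1341 at day 3 and 1527, 1087 and 995 at day 7, a fall in every pair (-0.30 ± 0.068, adjusted p 0.0224). Besides App and Il17ra, the calls outside all 14 lists were Cfp, Il15, Plau and Slamf7, of which all but Plau are named with their values known. Plau, the urokinase plasminogen activator, gave 33.5, 75.7 and 82.1 at day 3 and 48.4, 143 and 139 at day 7, the second largest rise (0.79 ± 0.12, adjusted p 0.0019). Il15, a cytokine for natural killer and memory T cells, gave 82.7, 107 and 118 at day 3 and 84.1, 180 and 173 at day 7, so that sample 1 barely differed (0.51 ± 0.13, adjusted p 0.0369), and its call was lost with median-of-ratios (adjusted p 0.0621, edgeR) and TMM scaling (0.0504).

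Ifnb1 and Cd74, read beside these lists, did not pass either (0.38 and -0.02, adjusted p 0.301 and 0.799, edgeR), and nor did Ifnar1 (0.19, adjusted p 0.268).

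Some genes had groups that did not overlap and still did not pass the paired test. Traf2, an adaptor of TNF receptors, gave 56.3, 45.4 and 56.7 at day 3 and 71.6, 90.4 and 62.8 at day 7 (0.53 ± 0.17, adjusted p 0.0929, edgeR). Syk, a kinase of Fc and C-type lectin receptors, was lower in every day 7 sample, with 63.5, 48.1 and 49.9 at day 3 and 43.5, 36.5 and 38.1 at day 7 (-0.45 ± 0.15, adjusted p 0.0965). Csf1r, the receptor for the macrophage growth factor M-CSF, had means of 49.8 ± 8.74 and 37.5 ± 6.59 (SD, n = 3), with the highest day 7 sample at 44.49 and the lowest day 3 sample at 44.55 (-0.40 ± 0.15, adjusted p 0.134). Aire, named as the autoimmune regulator, had means of 37.5 ± 6.52 and 28.6 ± 3.41 (-0.38 ± 0.20, adjusted p 0.298). All of these are genes of low count in these cells.

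**Figure D3:**
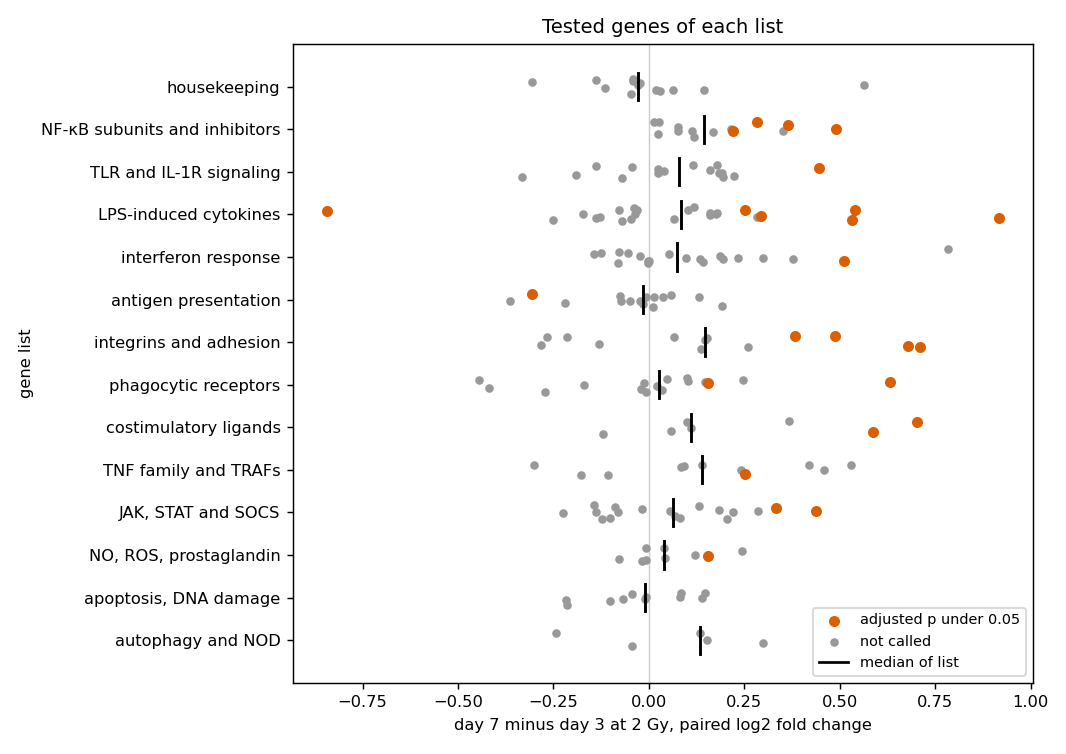
Paired log2 fold changes of day 7 against day 3 EVs for the tested genes of each list, 1 point a gene, with called genes in color and a bar at the median of each list. With the housekeeping scaling plotted, the NF-κB genes lie above 0 with a median of 0.14 and the housekeeping genes have a median of -0.03, whereas with TMM scaling 11 of 14 NF-κB genes lie above 0.

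The number in the title accounted for more of the variation than the day. Over the 280 genes it took 68.8% of the variance, against 17.6% for day and 13.6% for the remainder. The first principal component held 72.2% of the variance, with the day 3 samples at -6.33, 0.19 and 1.66 and the day 7 samples at -3.88, 3.74 and 4.63. Both samples numbered 1 were at its low end, and each day 7 sample lay above its day 3 partner. A test of the number called 86 genes (30.7%), of which 64 were higher in samples 2 and 3 than in sample 1. Of the 29 genes called by day, 26 were also called by number, and in 25 of these 26 the difference by number was the larger. The median absolute log2 change of the 26 was 0.50 by day and 0.78 by number. In all 26, day 7 sample 1 did not pass the more extreme of day 3 samples 2 and 3. Across all 280 genes the 2 changes correlated at r = 0.67 and rho = 0.57, a description over genes measured in the same 6 samples. The 3 genes called by day and not by number were Nfkbiz, Nfkbia and Il17ra, the same 3 called genes whose groups did not overlap. These criteria are not independent, since a large difference by number tends to make the groups overlap. Of the 20 tested genes whose groups did not overlap, day 7 was above in 11 (3.93% of all tested genes) and below in 9 (3.21%), and an exact permutation test of 3 samples against 3 cannot give a p below 0.1. Total counts per unit of the housekeeping mean moved with the number, at 1302 and 1315 in the samples numbered 1 and from 1390 to 1401 in the others, and so did the housekeeping gene Ppia, at 2729 and 2823 against 3474 to 4348. Their part in the calls, and what the number stands for, was not tested.

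**Figure D4:**
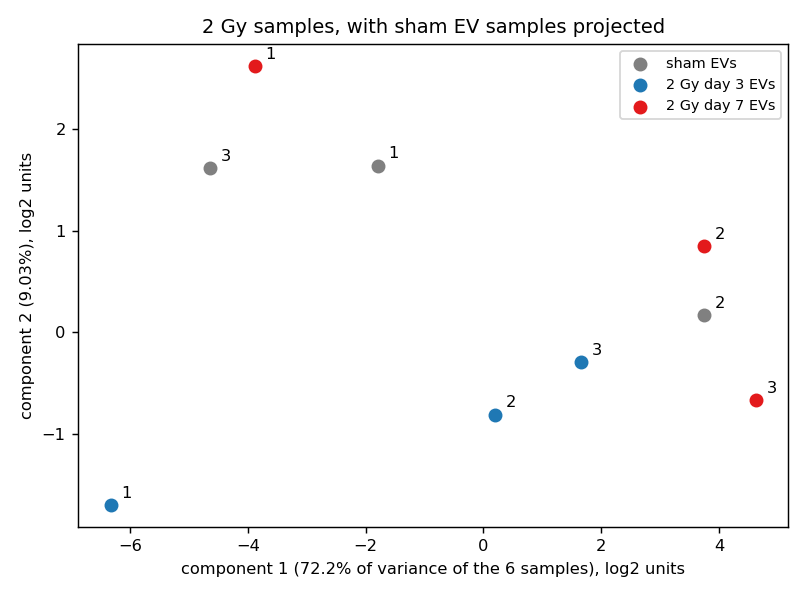
The first 2 principal components of the 6 samples, holding 72.2% and 9.03% of the variance, with sham samples projected on them. Both samples numbered 1 lie at the low end of the first component, at -6.33 and -3.88.

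Sham EVs gave a reference outside the comparison. Of the 26 genes that rose, the sham mean lay between the day 3 and day 7 means for 21, above day 7 for 3 and below day 3 for 2. Of the 3 genes that fell it lay between for 2. Both sets were selected for a difference between the days, which leaves more room for a sham mean between them. The share among all tested genes was not counted. Projected on the same component, the sham samples spread from -4.65 to 3.73, which covers most of the range of the 2 Gy samples. When the sham samples entered the paired fit, 0 genes were called, with 9 at an unadjusted p under 0.05. Across genes, sham samples 1 and 2 correlated positively with the 2 Gy samples of their own number (0.194 and 0.254 for sample 1, 0.471 and 0.642 for sample 2). Sham sample 2 correlated more highly with those numbered 3 (0.655 and 0.659). Sham sample 3 correlated negatively with those of its own number (-0.652 and -0.633) and positively with those numbered 1 (0.732 and 0.779).

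The change with day was also set against that at 9 Gy, where 2 of the 3 samples titled day 3 carry a day label of 7. An interaction term in edgeR called 0 of 264 genes (0%), with 5 at an unadjusted p under 0.05 (1.89%). These 5 were H2-Ob (1.18), Nfatc3 (-1.04), Xcl1 (-1.09), Irak4 (0.72) and Ifngr1 (1.09), given as log2 changes at 2 Gy minus 9 Gy, each with an adjusted p of 0.993, and were chosen for these values. The 9 Gy day 3 samples were shallow, with total counts from 43176 to 87899 and 107 to 148 of the 280 genes under 20 counts, against totals from 453178 to 837995 in the other samples of this fit. The part of this depth, and of the conflicting day labels, in the count of 0 was not tested, and none of the 29 genes above was shown to be particular to 2 Gy.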

How the data were processed

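RAW264.7 macrophages were profiled in 15 samples, 5 groups of 3, grouped by the dose and day in their titles. The authors deposited raw counts of 561 genes, with a lowest count of 1 and no control probes. The submitters' processing notes name nSolver 4.0, whose normalized values and settings were not used here. Counts of the 6 samples were scaled to the geometric mean of 14 housekeeping genes, and normalized counts were set to their mean level of 537.2. Tested genes, 280 in all, reached a mean raw count of 20, with edgeR 4.0.16 in R 4.3.3 (quasi-likelihood, Benjamini-Hochberg adjustment over these genes, threshold 0.05, prior count 0.125), without and with the number in the title as a block. The numbers were treated as pairs, although no source used here explains what samples with the same number have in common. Deviations from the group means correlated at 0.763, 0.431 and 0.578 between samples with the same number. Day 3 sample 2 also correlated with day 7 sample 3 (0.363), and day 3 sample 3 with day 7 sample 2 (0.572). These correlations therefore do not clearly separate samples 2 and 3 into pairs. Alternatives used DESeq2 1.42.0, limma 3.58.1, other scalings, filters and groups in the fit, and left out samples. The procedure was tested on simulated data.

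The comparison and the gene lists were chosen with earlier results of these data known. By rule, genes named were those the study's text gives for 2 Gy EVs against sham EVs, up to 20 called genes with the smallest paired p, the 5 smallest unpaired p, the 5 largest unpaired changes among genes whose groups did not overlap, 7 readouts (Il6, Il1b, Tnf, Nos2, Cd74, Ifnb1 and Ccl5), housekeeping genes, and the list members with the smallest paired p. Icam1, Stat5b and genes marked in the text were added with their values known. Total counts ranged from 583646 to 837995, and 3 to 19 tested genes per sample had under 20 counts. Promoters came from RefSeq (GRCm38.p6).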

Additional observations from a re-analysis of the deposited data

How the results depend on the processing

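Without pairing, 0 genes were called under every scaling and filter tried and in limma, 1 in DESeq2, and 29 with the number in the title as a replicate block. Leaving out samples gave 0 to 41, the 41 without replicate 1 of both groups. With pairing, 29 genes (89.7% higher) became 18 (77.8% higher) with median-of-ratios scaling, 21 (76.2% higher) with TMM, 22 in DESeq2 and 24 in limma. The count was 0 with sham samples in the fit and 0 with all 5 groups. Leaving out samples gave 0 to 62. Of the 29 genes, 17 passed under all 5 other scalings and none reversed under them. The 12 that lost their call under at least 1 of them were Nfkb2, Nfkbia, Itgb2, Cfp, Cybb, Icam1, Il15, Il17ra, Myd88, Slamf7, Stat5b and Trem2. The interaction with dose was 0 in every alternative, with or without the block. Causes were not tested. Background could not be subtracted, and low counts carry a larger counting error, as in sample 1 of Icam1 (13 and 12 raw counts) and Trem2 (18 and 24).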

Other observations

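Beside the genes that moved with day, 60 genes differed by the number in the title and were not called by day, 41 higher and 19 lower in samples 2 and 3 than in sample 1. Cd14, the LPS co-receptor, gave 4421, 2796 and 2681 at day 3 and 3904, 2490 and 2564 at day 7. Socs3, an inhibitor of STAT signaling, gave 149.8, 59.7 and 64.5 at day 3 and 163, 61.2 and 76.3 at day 7. Cxcl11, an interferon-induced chemokine, ran the other way, with 1751, 3238 and 3351 at day 3 and 2237, 3370 and 3676 at day 7. In each of these genes sample 1 stood apart from samples 2 and 3 on both days, by more than the days differed. They were chosen after their values were seen.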
